A study of Mus musculus with 12 samples.

Results

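The 31 genes described here encode the folding machinery of the endoplasmic reticulum (ER) and the unfolded protein response that controls it. They were taken by name, through the accession printed for each array probe, and comprise 5 folding chaperones and lectins, 7 co-chaperones and secreted ER stress proteins, 6 disulphide isomerases and related oxidoreductases, 8 genes of ER-associated degradation, 3 genes of the sensors and their effector, and 2 genes of protein translocation. All 31 were among the 26837 genes tested, and each was well above background on all 12 arrays through the probe used. The arrays were one-colour Agilent arrays of RNA from mouse embryonic stem cells, a pluripotent cell type. Every group was grown with leukaemia inhibitory factor (LIF) and 250 nM PD173074, which blocks the receptors of fibroblast growth factors.

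There were 4 groups of 3 arrays, described in the series as biological replicates. Untreated cells were titled as 0 h. Another group received 250 nM 4OHT for 6 h, where 4OHT is the usual short name of 4-hydroxytamoxifen, which can activate a protein joined to a mutated oestrogen receptor domain. A further group received 1 µM MG132, an inhibitor of the proteasome, for 30 min and then 6 h, and the last received MG132 in the same way with 4OHT added after the 30 min. Strain, cell line and the fusion protein, if any, are not given in the labels used here, and no vehicle is named. The untreated cells have no counterpart kept for 6 h, so in each comparison with untreated cells the compound and the hours in culture cannot be told apart. The series title speaks of transcription that depends on the proteasome and on the kinase ERK.

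Proteins that enter the ER are folded by chaperones such as BiP, the product of Hspa5, and by enzymes that form and rearrange disulphide bonds. Proteins that fail to fold are pulled back to the cytosol, ubiquitinated and destroyed by the proteasome, a route called ER-associated degradation, so MG132 blocks its last step. Sensors in the ER membrane, IRE1 (encoded by Ern1), ATF6 and PERK, respond when unfolded proteins build up. IRE1 splices Xbp1 RNA so that it encodes an active transcription factor, ATF6 is cut to release another, and PERK slows translation and favours that of ATF4. XBP1 and ATF6 act through short promoter elements that many chaperone genes share.

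These elements are shown because they are the sequence through which XBP1 and ATF6 are known to act, and because finding them uses no array value. The ER stress element was searched as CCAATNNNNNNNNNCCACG, the ER stress element II as ATTGGNCCACG and the unfolded protein response element as TGACGTGG, each on both strands, from 250 bases before to 50 bases after the transcription start in RefSeq promoters of build GRCm38.p6. Of the 31 genes, 27 had a promoter entry, and the other 4 were Atf6, Derl1, Hyou1 and Manf. The ER stress element was found in 9 of these 27 genes, against 0.119% of all 32851 promoters and 0.137% of all 27025 genes with an entry. Hsp90b1 held it at 2 places. The ER stress element II was found in Herpud1 and Dnajb11, against 0.0365% of all promoters, and the unfolded protein response element in Txndc5, against 0.676%. No match says only that these exact letters are not in the window, and a match is not shown to be a bound site. The matched stretches are written 5′ to 3′ in the orientation of the element, with its fixed letters in capitals.
Hspa5, chr2:34772025-34772043: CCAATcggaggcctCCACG
Hsp90b1, chr10:86705638-86705656: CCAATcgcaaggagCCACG
Hsp90b1, chr10:86705533-86705551: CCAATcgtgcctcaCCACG
Calr, chr8:84847075-84847093: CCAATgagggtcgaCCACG
Canx, chr11:50325800-50325818: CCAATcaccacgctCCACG
Dnajc3, chr14:118937827-118937845: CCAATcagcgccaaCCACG
Creld2, chr15:88819520-88819538: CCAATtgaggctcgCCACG
Pdia6, chr12:17266491-17266509: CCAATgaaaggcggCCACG
Syvn1, chr19:6046532-6046550: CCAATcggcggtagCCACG
Derl3, chr10:75893242-75893260: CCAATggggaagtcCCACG
Herpud1, chr8:94386377-94386387: ATTGGgCCACG
Dnajb11, chr16:22857852-22857862: ATTGGcCCACG

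The element lay on the same strand as the gene in Hspa5, Canx, Dnajc3, Pdia6, Syvn1, Herpud1, Dnajb11 and the upstream copy of Hsp90b1, and on the opposite strand in Calr, Creld2, Derl3 and the other copy of Hsp90b1. Counted from the start, the centre of the element lay at -35 in Syvn1, -56 in Hspa5 and -147 in Derl3. In Dnajb11 the short element lay 7 to 17 bases after the start.

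**Figure D1:**
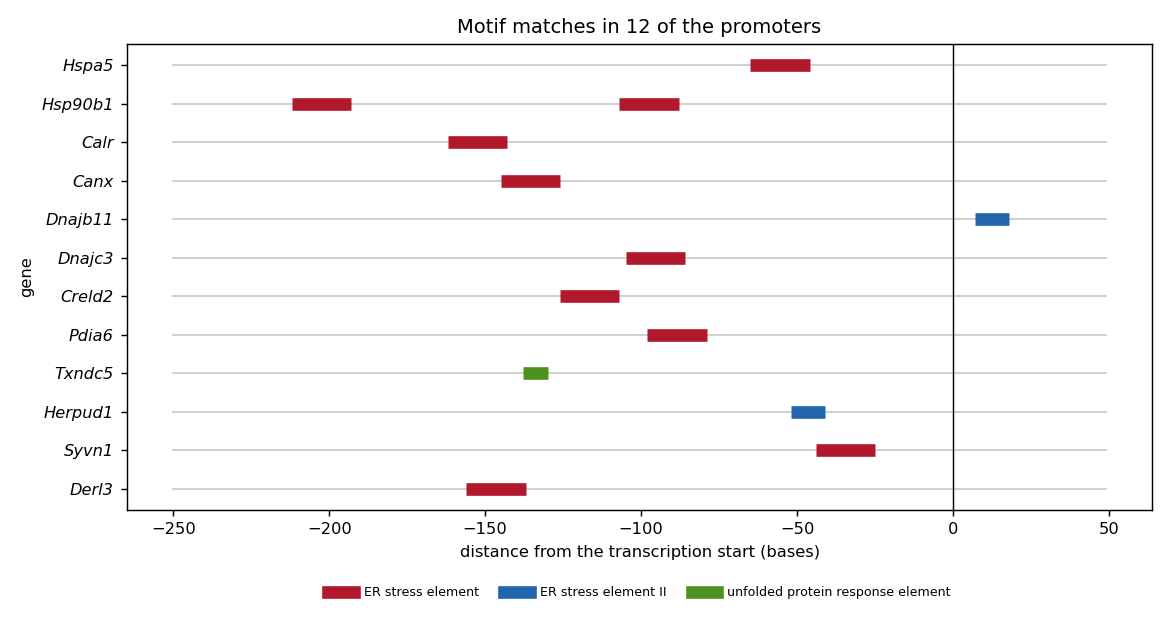
Each grey line is the promoter window of 1 gene from 250 bases before to 50 bases after the transcription start (x axis, in bases), and each coloured block is a stretch that matched 1 of the 3 elements. The 10 matches of the ER stress element lie before the start in 9 genes, and the only match after the start is that of Dnajb11.

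For the 3 genes with an element whose RNA rose furthest when MG132 was given with 4OHT, the 250 bases before the start are printed on the gene's strand, with the fixed letters of the element in capitals. All 3 genes lie on the plus strand. In Derl3 the element reads backwards, from CGTGG to ATTGG.
Hspa5, chr2:34771840-34772089: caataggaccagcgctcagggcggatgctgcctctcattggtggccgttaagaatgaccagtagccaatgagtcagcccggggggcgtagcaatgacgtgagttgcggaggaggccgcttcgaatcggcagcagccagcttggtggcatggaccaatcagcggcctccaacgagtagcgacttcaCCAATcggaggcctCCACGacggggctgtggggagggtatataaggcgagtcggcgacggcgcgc
Herpud1, chr8:94386179-94386428: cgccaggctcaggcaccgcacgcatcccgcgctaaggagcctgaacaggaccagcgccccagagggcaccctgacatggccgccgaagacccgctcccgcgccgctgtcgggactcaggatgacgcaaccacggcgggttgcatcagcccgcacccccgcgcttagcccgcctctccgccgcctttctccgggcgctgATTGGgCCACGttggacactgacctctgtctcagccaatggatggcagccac
Derl3, chr10:75893148-75893397: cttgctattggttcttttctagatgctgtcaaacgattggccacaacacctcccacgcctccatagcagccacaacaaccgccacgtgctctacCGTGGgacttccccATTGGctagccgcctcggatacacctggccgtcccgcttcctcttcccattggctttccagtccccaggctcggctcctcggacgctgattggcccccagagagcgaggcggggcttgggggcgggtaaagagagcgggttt

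The arrays themselves limit some comparisons. The 75th percentile of the processed intensity, to which each array was scaled, ran from 302 to 481 units, and 49.4% to 63.2% of probes were well above background on an array. Slide 1 held the untreated, the 4OHT and 2 of the MG132 arrays, and slide 2 held the replicate 3 MG132 array and all arrays with both compounds. All 8 markers of embryonic stem cells were well above background on all 12 arrays. All 8 fell with MG132 alone, beside 18.4% of all genes. Their summed linear level went from 380 to 389 in untreated cells to 214 to 232 with MG132, 350 to 388 with 4OHT and 182 to 186 with both. Markers of primitive endoderm, a lineage that secretes much protein, summed to 143 to 205, 136 to 198, 175 to 262 and 221 to 252 in the same order, with all 10 above background on every array. Fibroblast markers summed to 26.8 to 45.2, 15.4 to 20.2, 79.2 to 103 and 34.6 to 52.2, with 4 to 7 of 8 above background. Such sums weigh the brightest genes most. Sparc, of the endoderm list, averaged 6.88 on the log2 scale untreated and 7.39 with 4OHT, and Vim, of the fibroblast list, 4.91 and 6. With 4OHT alone 1 of the 10 endoderm markers rose and none fell, and 6 of the 10 changes were negative. Of the 6 fibroblast markers tested 3 rose and 1 fell, beside 14.7% and 13.8% of all genes. The part of these cell markers in the results below was not tested, and in bulk RNA fewer cells of a type and less RNA per cell cannot be told apart.

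Levels below are log2 of the processed intensity relative to the 75th percentile of the array, so that 1 unit is a doubling, and each refers to 1 probe, so levels of different genes are not set against each other. Changes are differences of these levels ± standard error from a limma fit over all 12 arrays, with 3 arrays per group. A gene was said to rise or fall when its p, adjusted by the Benjamini-Hochberg method over all 26837 genes, was under 0.05.

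MG132 raised some of the 31 genes and lowered others, with and without 4OHT. Against untreated cells, MG132 raised 7 of the 31 genes and lowered 3, while 24.5% and 18.4% of all genes tested rose and fell. The median change of the 31 genes was 0.15, against 0.08 for all genes. Against 4OHT alone, MG132 with 4OHT raised 16 of the 31 genes and lowered 4, beside 28.3% and 21.6% of all genes. The median change there was 0.44, against 0.11 for all genes. The first of these comparisons is close to or under the background in both directions, and the second is above it among the genes that rose. These counts do not test whether the MG132 response differed with 4OHT: the test of that difference, which is the same as that of the 4OHT responses with and without MG132, passed for none of the 31 as higher and for 1, Xbp1, as lower.

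These comparisons share no array. All 7 genes raised by MG132 alone (Hspa5, Canx, Dnajb11, Creld2, Pdia3, Erp44 and Herpud1) also rose in the presence of 4OHT, which is 43.8% of the 16, and the 3 that fell (Edem2, Sdf2l1 and Sec61b) also fell again, which is 75% of the 4. Over all genes tested, 74.7% of those raised and 74.4% of those lowered by MG132 alone did so again with 4OHT. When arrays were centred on their median instead, the all-gene median with MG132 moved from 0.08 to -0.27, the 31 genes to -0.19, and the split to 2 higher and 8 lower. Canx and Herpud1 were the 2 that stayed higher. In the presence of 4OHT that scaling gave 7 higher and 6 lower, with medians of 0.20 for the 31 genes and -0.12 for all genes. The shares of all genes passing with that scaling are not given here, so nothing about the 31 is read from its counts.

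4OHT alone did not move the 31 genes to one side. It raised 4 and lowered 6, beside 14.7% and 13.8% of all genes, and their median change was -0.02 against 0.05 for all genes. The 4 that rose were Canx and the 3 genes of the sensors and their effector. With quantile normalization 2 rose and 8 fell, and with median centring 2 rose and 7 fell. The count of 10 was 5 without the replicate 2 untreated array, 5 without the replicate 1 4OHT array and 6 without the replicate 2 4OHT array. Within MG132, 4OHT raised 6 genes and lowered 2, beside 13.2% and 13% of all genes, with a median of 0.04 against 0.06. That count of 8 became 4 without the replicate 1 or the replicate 2 array with both compounds, and 5 without the replicate 2 or the replicate 3 MG132 array. The shares of all genes passing under these other scalings and left-out arrays are not given here. Nothing about the 31 is therefore read from those counts. The comparisons of 4OHT without and with MG132 share no array either. Atf6 and Ern1 rose in both, which is 50% of the 4 and 33.3% of the 6, and Edem2 and Sdf2l1 fell in both, which is 33.3% of the 6 and 100% of the 2. Over all genes tested, 48.3% of those raised and 51.4% of those lowered by 4OHT alone did so again under MG132.

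**Figure D2:**
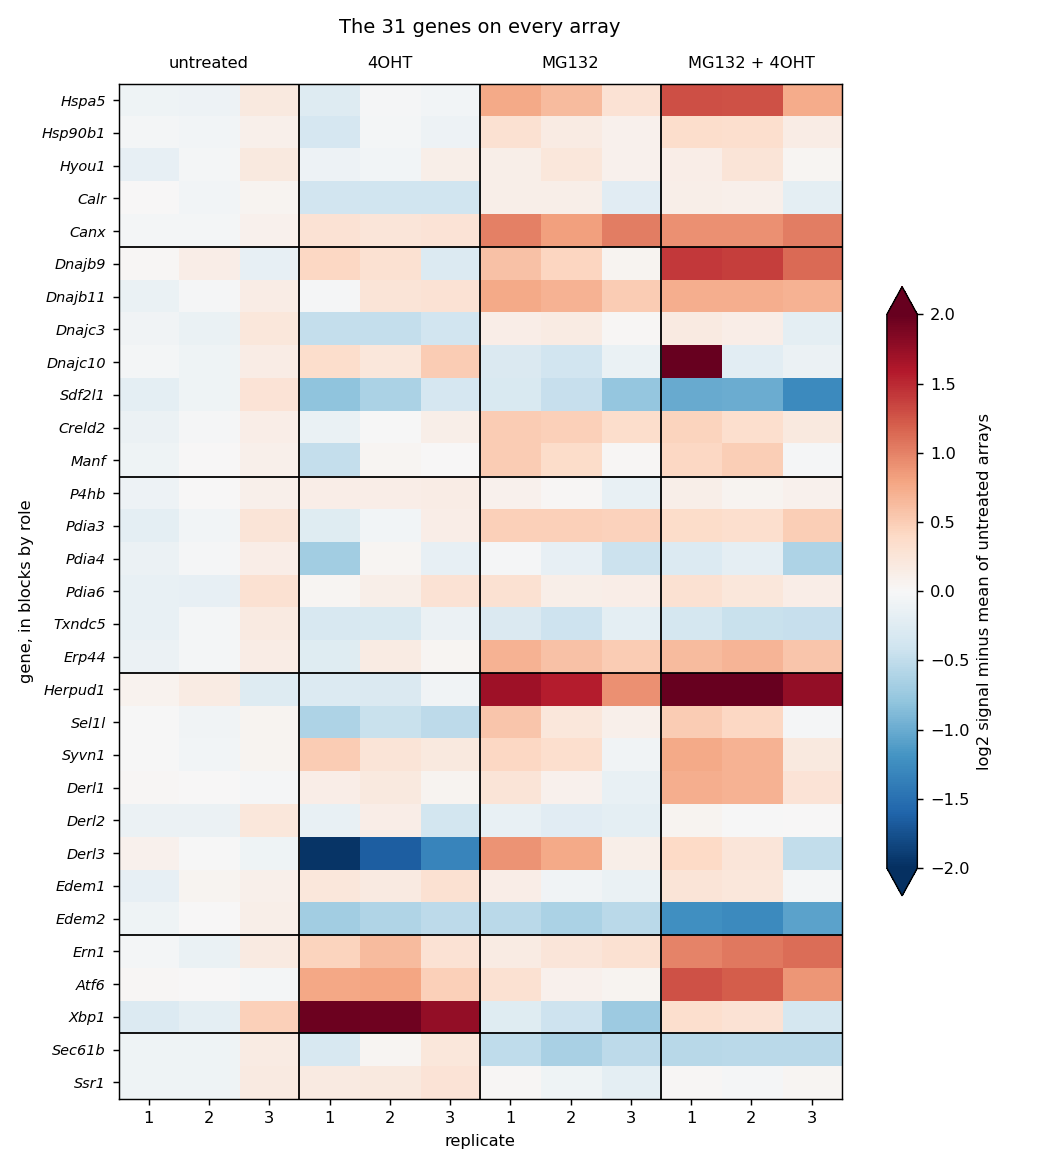
Each cell is the level of 1 gene (rows, in blocks by role) on 1 array (columns, 3 replicates per group) minus the mean of the 3 untreated arrays, on the log2 scale with colours ending at 2 in each direction. Herpud1 and Hspa5 are red on all arrays with MG132, Xbp1 is dark red on the 4OHT arrays alone, Derl3 is dark blue there, and 1 array of Dnajc10 stands apart.

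Among the folding chaperones and lectins, MG132 raised Hspa5 and Canx in both settings and, when 4OHT was present, also Hsp90b1 and Calr. So 2 of 5 rose without 4OHT and 4 of 5 with it, beside 24.5% and 28.3% of all genes. Hspa5 encodes BiP, the main Hsp70 chaperone of the ER. Its level was 5.64, 5.62 and 5.91 on the untreated arrays, 5.46, 5.70 and 5.67 with 4OHT, 6.47, 6.36 and 6.01 with MG132, and 7.01, 7.0 and 6.46 with both. The MG132 arrays lay above every untreated and 4OHT array, and the array with both compounds that was lowest, replicate 3, lay within the range of MG132 alone. MG132 raised Hspa5 by 0.56 ± 0.18 (1.47-fold, adjusted p = 0.026, lost in 7 of 26 other settings) and, with 4OHT present, by 1.22 ± 0.18 (2.32-fold, adjusted p = 0.00029). 4OHT alone changed it by -0.12 ± 0.18 (adjusted p = 0.67). Under MG132, 4OHT raised it by 0.54 ± 0.18 (adjusted p = 0.046), a call lost in 17 of 26 other settings, with adjusted p up to 0.18. The other, dimmer Hspa5 probes did not pass with MG132 alone (0.51 and 0.42, adjusted p = 0.062 and 0.13). They rose with 4OHT under MG132 (0.67 and 0.69, adjusted p = 0.032 and 0.033) and with MG132 under 4OHT (1.29 and 1.23, adjusted p = 0.00042 and 0.00071).

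Canx encodes calnexin, a membrane lectin that holds glycoproteins while they fold. Canx read 5.0, 5.0 and 5.13 in untreated cells, 5.33, 5.28 and 5.32 with 4OHT, 6.05, 5.86 and 6.07 with MG132, and 5.95, 5.95 and 6.07 with both. The 2 groups with MG132 overlapped and stood above the other arrays. MG132 raised Canx 1.93-fold (0.95 ± 0.09, adjusted p = 2.3e-05) and, with 4OHT, 1.6-fold (0.68 ± 0.09, adjusted p = 0.00015). Its rise of 0.27 ± 0.09 with 4OHT alone (adjusted p = 0.045) was lost in 17 of 26 other settings, and a second Canx probe changed there by -0.06.

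Calreticulin, the soluble partner of calnexin encoded by Calr, was lower with 4OHT (-0.39 ± 0.12, adjusted p = 0.034; lost without any 1 of 6 arrays, adjusted p up to 0.088). With MG132 and 4OHT it was higher by 0.40 ± 0.12 than with 4OHT alone (adjusted p = 0.018), at 4.79 against 4.78 in untreated cells. This rise was lost in 4 of 25 other settings, among them median centring (0.17 ± 0.15, adjusted p = 0.37). Hsp90b1, the ER member of the Hsp90 family, rose by 0.44 ± 0.11 with MG132 in the presence of 4OHT (adjusted p = 0.0081) and changed by 0.19 ± 0.11 without it (adjusted p = 0.20). The rise was lost in 3 of 25 other settings, among them median centring (0.20 ± 0.15, adjusted p = 0.29) and the slide term (adjusted p = 0.069). Hyou1, a large relative of Hsp70 that exchanges nucleotide on BiP, passed the test in no comparison, with changes from -0.01 to 0.15, although a dimmer Hyou1 probe rose by 0.53 with MG132 alone (adjusted p = 0.039).

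Of the 7 co-chaperones and secreted proteins, MG132 raised 2 and lowered 1 against untreated cells, beside 24.5% and 18.4% of all genes, and raised 4 and lowered 1 when 4OHT was present, beside 28.3% and 21.6%. Dnajb9, also called ERdj4, is a J-domain protein that brings substrates to BiP and to degradation. It read -0.03, 0.09 and -0.21 in untreated cells, 0.36, 0.25 and -0.33 with 4OHT, 0.53, 0.38 and 0.00 with MG132, and 1.36, 1.34 and 1.08 with both. Only the arrays with both compounds stood clear of the rest, and within every group the replicate 3 array was the lowest. Dnajb9 was the single gene of the 31 that differed between the replicate 3 arrays and the others (-0.40 ± 0.08, adjusted p = 0.011), where 5.26% of all genes were higher and 4.83% lower. Its change with each compound alone was 0.15 ± 0.20 for 4OHT (adjusted p = 0.63) and 0.35 ± 0.20 for MG132 (adjusted p = 0.18). 4OHT raised it by 0.96 ± 0.20 under MG132 (1.94-fold, adjusted p = 0.0061), and MG132 raised it by 1.17 ± 0.20 under 4OHT (2.24-fold, adjusted p = 0.00077). Both calls held in every other setting run.

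Dnajb11, another J-domain partner of BiP, rose by 0.65 ± 0.12 with MG132 (adjusted p = 0.0013) and by 0.54 ± 0.12 with 4OHT present (adjusted p = 0.0033). Creld2, a secreted ER stress protein, rose by 0.45 ± 0.11 (adjusted p = 0.0082) and 0.34 ± 0.11 (adjusted p = 0.027), the second call lost in 9 of 25 other settings, among them the slide term (adjusted p = 0.13) and median centring (0.11 ± 0.15, adjusted p = 0.59). Dnajc3 (p58IPK), a lumenal J-domain protein that binds unfolded clients, fell by 0.45 on the log2 scale with 4OHT (adjusted p = 0.024). It was higher by 0.48 ± 0.13 in cells given MG132 and 4OHT than in cells given 4OHT alone (adjusted p = 0.0099). The fall was lost in 5 of 26 other settings, among them normexp background correction (-0.136 ± 0.094, adjusted p = 0.25). The rise was lost in 3 of 25: median centring, the slide term, and slide and replicate terms together (adjusted p = 0.2, 0.095 and 0.17).

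Sdf2l1, a stress-inducible partner of ER J-domain proteins, fell in all 4 comparisons. It read 1.21, 1.32 and 1.69 in untreated cells, 0.61, 0.77 and 1.08 with 4OHT, 1.11, 0.95 and 0.63 with MG132, and 0.40, 0.42 and 0.13 with both. Its changes were -0.59, -0.51, -0.58 and -0.50 (each ± 0.18) for 4OHT, MG132, 4OHT under MG132 and MG132 under 4OHT, with adjusted p = 0.032, 0.040, 0.037 and 0.038. The calls were lost in 7 of 26, 14 of 26, 13 of 26 and 14 of 25 other settings, and a replicate block ended all 4 (adjusted p = 0.051, 0.062, 0.055 and 0.059). The change with MG132 under 4OHT was 0.07 ± 0.33 (adjusted p = 0.91) with slide and replicate terms in the fit. Manf, a secreted survival factor, passed in no comparison, the largest change being 0.44 ± 0.19 (adjusted p = 0.072).

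Dnajc10 (ERdj5), a J-domain protein that reduces disulphides, rested on 1 array. Its level was 1.99, 1.94 and 2.18 in untreated cells, 2.38, 2.26 and 2.53 with 4OHT, 1.74, 1.65 and 1.89 with MG132, and 5.78, 1.82 and 1.91 with both. The replicate 1 array with both compounds was far above the other 11, which the other two Dnajc10 probes did not show: for them, 4OHT under MG132 changed the level by 0.09 and 0.14, and MG132 under 4OHT lowered it (-0.80 and -0.72, adjusted p = 0.00075 and 0.00092). With that array the probe passed in no comparison. Without it, MG132 under 4OHT lowered Dnajc10 (-0.52 ± 0.13, adjusted p = 0.0097) in place of a change of 0.78 ± 0.83, and 4OHT alone raised it by 0.35 (adjusted p = 0.048).

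Of the 6 disulphide isomerases and related oxidoreductases, MG132 raised the same 2 in both settings, beside 24.5% of all genes without 4OHT and 28.3% with it. 4OHT changed none of the 6 enough to pass in the main fit, with or without MG132. Alone it raised 14.7% and lowered 13.8% of all genes, and under MG132 13.2% and 13%. Erp44, which retains client proteins and oxidases in the early secretory pathway, rose by 0.60 ± 0.12 (adjusted p = 0.0025) and 0.64 ± 0.12 (adjusted p = 0.0015). Pdia3 (ERp57), which works with calnexin and calreticulin, rose by 0.47 ± 0.13 (adjusted p = 0.015) and 0.45 ± 0.13 (adjusted p = 0.016). The Pdia3 calls were lost in 4 of 26 and 3 of 25 other settings, among them median centring (adjusted p = 0.55 and 0.3). Those of Erp44 were lost in 1 of 26 and 2 of 25, median centring in both (adjusted p = 0.22 and 0.059). A second Pdia3 probe rose by 0.47 with MG132 alone (adjusted p = 0.018) and changed by 0.34 under 4OHT (adjusted p = 0.059). P4hb, the classical disulphide isomerase, and Pdia4, Pdia6 and Txndc5 passed in no comparison. Their changes with MG132 ran from -0.30 for Txndc5 (adjusted p = 0.052) to 0.19 for Pdia6; the fall of Txndc5 passed in 11 of 26 other settings, with adjusted p down to 0.0022 with median centring. With 4OHT they ran from -0.27 for Pdia4 to 0.15 for Pdia6. In other settings, the fall of Pdia4 with 4OHT alone passed with normexp background correction (-0.523 ± 0.129, adjusted p = 0.0077). That of Txndc5 passed with quantile normalization (-0.327 ± 0.1, adjusted p = 0.033) and median centring (-0.419 ± 0.13, adjusted p = 0.035).

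**Figure D3:**
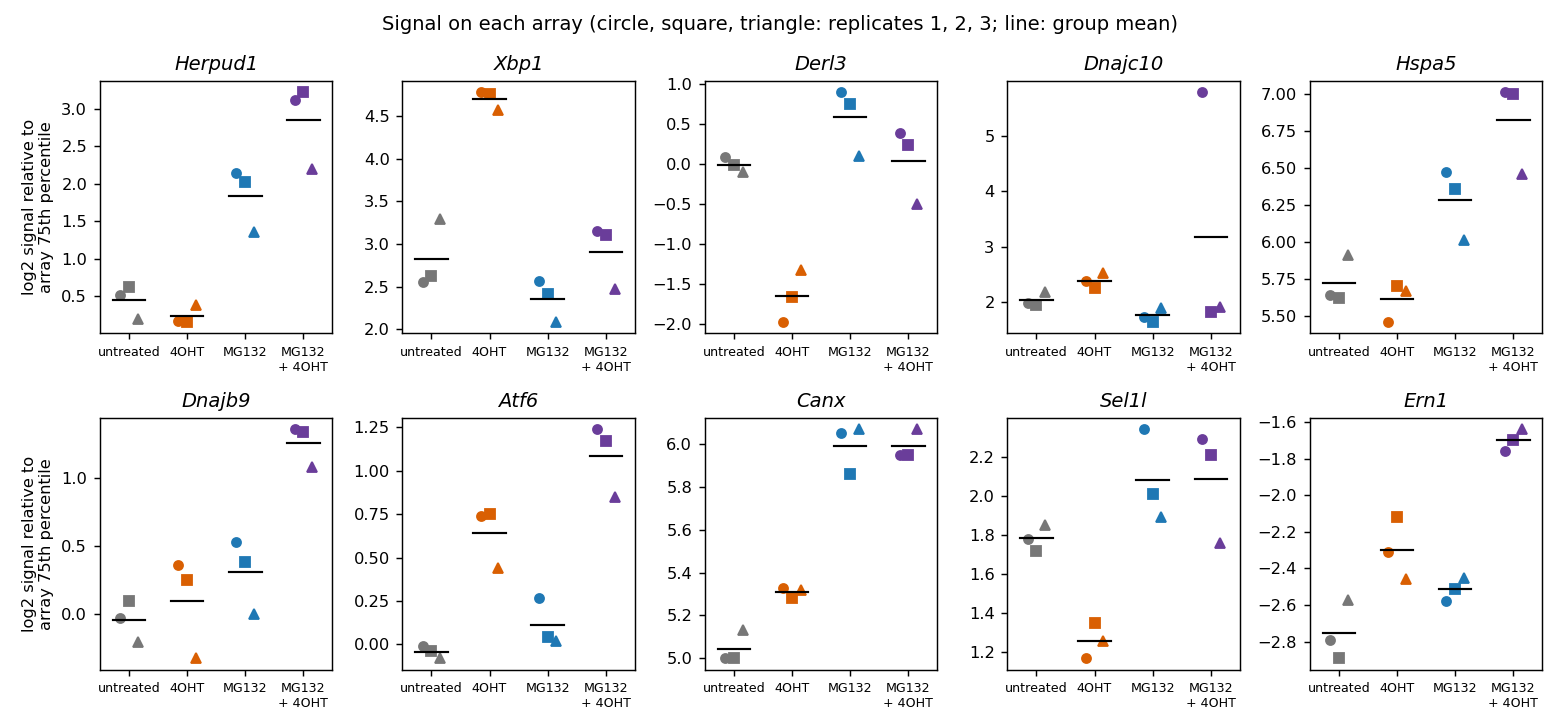
Each panel is 1 gene, with its level on each of the 12 arrays (y axis, log2 relative to the 75th percentile of the array, with its own range) by group, and a line at each group mean. Herpud1 climbs from 0.16 to 0.62 on the untreated and 4OHT arrays to between 2.2 and 3.22 with both compounds, while Xbp1 is at 4.57 to 4.78 with 4OHT alone and at most 3.29 elsewhere.

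The genes of ER-associated degradation held the largest rise of the 31 with MG132, in Herpud1, and the largest fall with 4OHT, in Derl3. Herpud1 encodes HERP, a membrane protein that gathers the degradation complex and is itself a proteasome substrate. Herpud1 read 0.52, 0.62 and 0.19 in untreated cells, 0.17, 0.16 and 0.38 with 4OHT, 2.15, 2.02 and 1.36 with MG132, and 3.12, 3.22 and 2.2 with both. The untreated and 4OHT arrays overlapped, the MG132 arrays lay above them all, and the arrays with both compounds lay above those, with the replicate 3 array lowest in both MG132 groups. MG132 raised it 2.63-fold (1.40 ± 0.28, adjusted p = 0.0026) alone and 6.09-fold (2.61 ± 0.28, adjusted p = 4.4e-05) with 4OHT. 4OHT changed it by -0.21 ± 0.28 without MG132 (adjusted p = 0.63) and raised it by 1.00 ± 0.28 under MG132 (adjusted p = 0.026), a call lost in 8 of 26 other settings. On slide 1 alone MG132 raised it by 1.64 ± 0.16 (adjusted p = 0.00071). A second, dimmer Herpud1 probe rose by 1.30 and 1.85 with MG132 without and with 4OHT (adjusted p = 0.032 and 0.005). That probe did not pass with 4OHT, with changes of 0.26 alone (adjusted p = 0.7) and 0.81 under MG132 (adjusted p = 0.19).

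Derl3 encodes the stress-inducible member of the derlins, membrane proteins thought to form the retrotranslocation path. Its levels were 0.08, -0.02 and -0.10 in untreated cells, -1.97, -1.66 and -1.33 with 4OHT, 0.89, 0.75 and 0.10 with MG132, and 0.39, 0.23 and -0.50 with both. The 3 arrays with 4OHT alone were far below the other 9. 4OHT lowered Derl3 3.12-fold (-1.64 ± 0.27, adjusted p = 0.0012), and MG132 given with it was 3.24-fold higher (1.70 ± 0.27, adjusted p = 0.00053). Both calls held in every other setting run. MG132 alone changed it by 0.59 ± 0.27 (adjusted p = 0.10), and by 0.83 ± 0.19 on slide 1 alone (adjusted p = 0.015). 4OHT under MG132 changed it by -0.54 ± 0.27 (adjusted p = 0.17). Derl1, the constitutive derlin, rose by 0.50 ± 0.14 with 4OHT under MG132 (adjusted p = 0.025) and by 0.44 ± 0.14 with MG132 under 4OHT (adjusted p = 0.024), and neither call held in all settings. Derl2 passed in no comparison.

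Sel1l and Syvn1 encode the adaptor and the ubiquitin ligase (HRD1) of the main degradation complex. Sel1l read 1.78, 1.72 and 1.85 in untreated cells, 1.17, 1.35 and 1.26 with 4OHT, 2.34, 2.01 and 1.89 with MG132, and 2.29, 2.21 and 1.76 with both. The 4OHT arrays were the lowest and did not overlap with any other. 4OHT lowered it by 0.53 (-0.53 ± 0.16, adjusted p = 0.028) and MG132 with 4OHT was higher by 0.83 ± 0.16 (1.78-fold, adjusted p = 0.0014), but a second, dimmer Sel1l probe changed by 0.09 and 0.00. Syvn1 passed in no comparison, with changes from 0.23 to 0.33. Without the replicate 3 array of every group Syvn1 passed with 4OHT (0.41 ± 0.11, adjusted p = 0.033), with MG132 (0.40 ± 0.11, adjusted p = 0.029) and with MG132 under 4OHT (0.35 ± 0.11, adjusted p = 0.040).

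Edem1 and Edem2 encode mannosidase-like proteins that mark misfolded glycoproteins for degradation. Edem2 fell in all 4 comparisons by a similar amount: -0.61, -0.58, -0.62 and -0.59 (each ± 0.09), with adjusted p = 0.00083, 0.00072, 0.0012 and 0.00053 for 4OHT, MG132, 4OHT under MG132 and MG132 under 4OHT. With normexp background correction the falls with 4OHT were smaller and did not pass. They were -0.205 ± 0.084 alone (adjusted p = 0.066) and -0.201 ± 0.084 under MG132 (adjusted p = 0.1). The fall with MG132 under 4OHT was lost with slide and replicate terms together (adjusted p = 0.073). Its level was -2.05, -1.96 and -1.85 in untreated cells and -3.18, -3.23 and -3.03 with both compounds, and -2.65 to -2.48 with either one alone. With both compounds it was therefore lowest, and the difference between the 4OHT responses was -0.01 ± 0.13. Its second probe fell by 0.72 and 0.70 with MG132 (adjusted p = 0.0021 in both) and changed by -0.30 and -0.28 with 4OHT (adjusted p = 0.14 and 0.17). Edem1 passed in no comparison, with changes from -0.10 to 0.24.

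The sensors and their effector were the only role in which every gene rose with 4OHT, 3 of 3, beside 14.7% of all genes. The rise of Ern1 was lost with median centring (0.28 ± 0.13, adjusted p = 0.13), with quantile normalization (0.28 ± 0.11, adjusted p = 0.071), with only the arrays compared (adjusted p = 0.085) and without the replicate 2 untreated array (adjusted p = 0.059). Xbp1 encodes the transcription factor whose RNA IRE1 splices. Xbp1 read 2.55, 2.63 and 3.29 in untreated cells, 4.78, 4.76 and 4.57 with 4OHT, 2.57, 2.41 and 2.09 with MG132, and 3.15, 3.11 and 2.47 with both. The 4OHT arrays stood above all others by more than 1 unit, and the other 3 groups overlapped. 4OHT raised Xbp1 3.68-fold (1.88 ± 0.23, adjusted p = 0.00022) and its 2 other probes by 1.71 and 1.51. This call held in every other setting run. Under MG132 the change was 0.55 ± 0.23 (adjusted p = 0.11). MG132 under 4OHT lowered it 3.47-fold (-1.80 ± 0.23, adjusted p = 0.00015), and MG132 alone changed it by -0.47 ± 0.23 (adjusted p = 0.14), while one of the other probes fell there (-0.70, adjusted p = 0.036). Where the probes lie relative to the stretch that IRE1 removes is not given in the sources used here, so spliced and unspliced Xbp1 RNA were not told apart.

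Atf6 encodes the sensor ATF6. Its levels were -0.01, -0.04 and -0.08 in untreated cells, 0.74, 0.75 and 0.44 with 4OHT, 0.27, 0.04 and 0.02 with MG132, and 1.24, 1.17 and 0.85 with both. The groups did not overlap with one another. 4OHT raised Atf6 1.61-fold without MG132 (0.69 ± 0.13, adjusted p = 0.0031) and 1.97-fold with it (0.98 ± 0.13, adjusted p = 0.00065). MG132 changed it by 0.15 ± 0.13 (adjusted p = 0.38) and, under 4OHT, raised it by 0.45 ± 0.13 (adjusted p = 0.017).

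Ern1 encodes IRE1. It read -2.79, -2.89 and -2.57 in untreated cells, -2.31, -2.12 and -2.46 with 4OHT, -2.58, -2.51 and -2.45 with MG132, and -1.76, -1.70 and -1.64 with both. The arrays with both compounds were clear of all others, and the 4OHT and MG132 arrays overlapped. 4OHT raised it 1.37-fold (0.45 ± 0.11, adjusted p = 0.013) and, under MG132, 1.76-fold (0.81 ± 0.11, adjusted p = 0.00079). MG132 under 4OHT raised it by 0.60 ± 0.11 (adjusted p = 0.0016) and alone changed it by 0.24 ± 0.11 (adjusted p = 0.12).

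Of the 2 translocation genes, Sec61b, a small subunit of the channel through which proteins enter the ER, fell with MG132 by 0.56 on the log2 scale (adjusted p = 0.0071) and, under 4OHT, by 0.53 (adjusted p = 0.0083). Its second probe fell by 0.81 and 0.55. Ssr1, a subunit of the translocon-associated protein complex, passed in no comparison, although a dimmer Ssr1 probe fell by 0.33 with MG132 alone (adjusted p = 0.012).

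**Figure D4:**
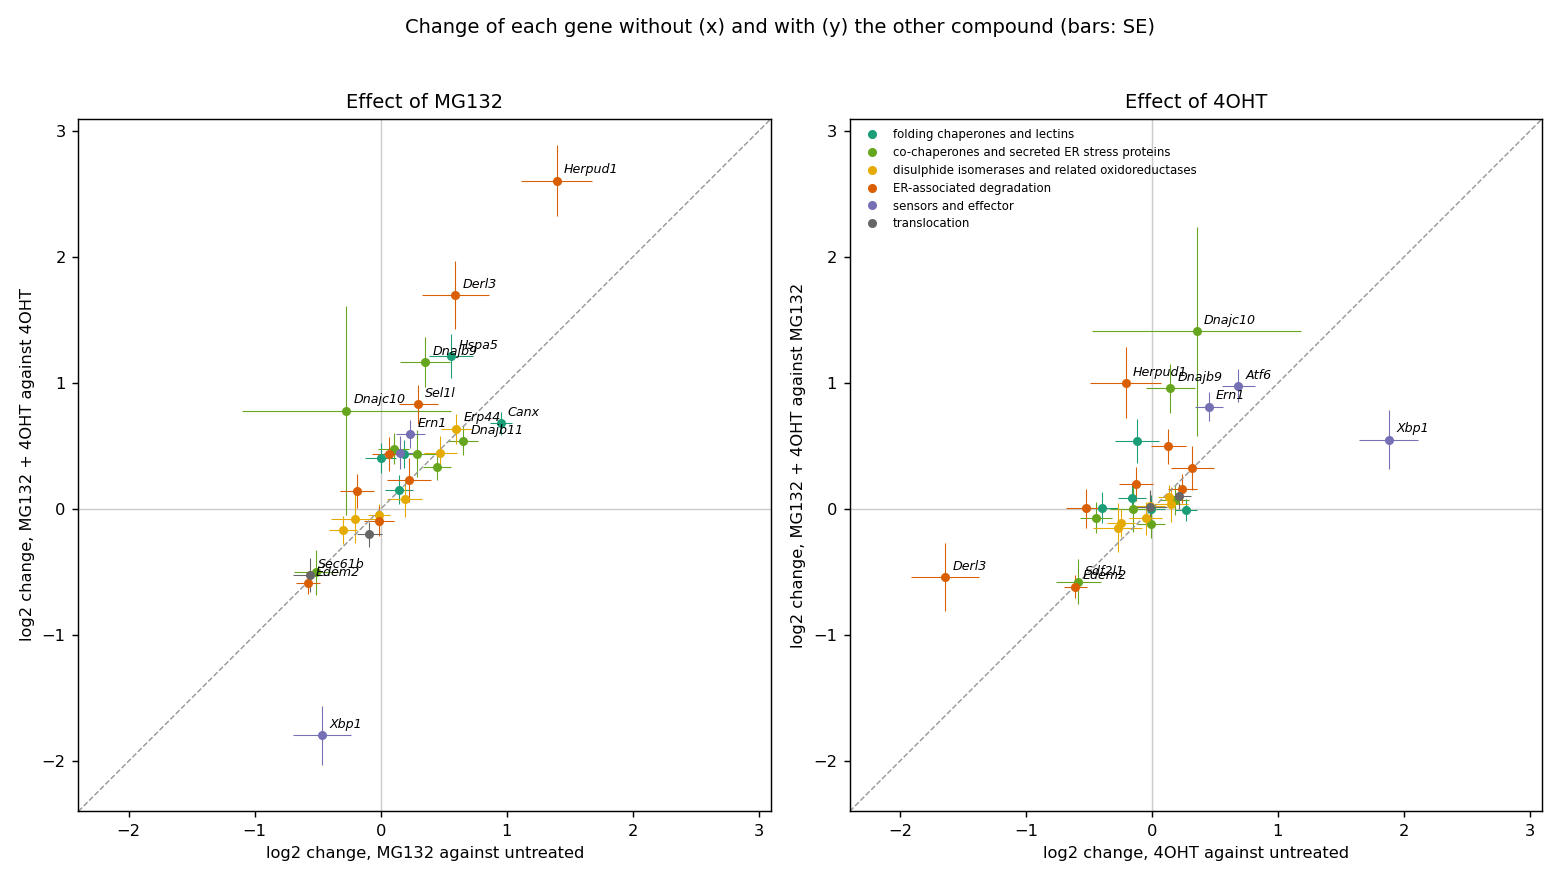
Each point is 1 of the 31 genes, coloured by role, with its log2 change without the other compound on the x axis and with it on the y axis; bars are standard errors and the dashed line marks equal changes. On the left, for MG132, Herpud1, Derl3, Hspa5 and Dnajb9 lie above the line and Xbp1 far below it; on the right, for 4OHT, Xbp1 lies far to the right at 1.88 and 0.55.

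Whether the 4OHT response depended on MG132 was tested directly as the difference between the 2 responses. Of the 31 genes 1 passed, Xbp1, whose response was smaller by 1.33 ± 0.33 under MG132 (-1.33, adjusted p = 0.041), while 2.63% of all genes passed as higher and 3.88% as lower. Its 2 other probes gave -1.09 and -1.18 (adjusted p = 0.089 and 0.14). The call was lost in 16 of 24 other settings, with values from -1.56 to -1.07 and adjusted p from 0.0035 to 0.30, and 9 of these 16 leave out 1 array. For Herpud1 the difference was 1.21 ± 0.40 (adjusted p = 0.11), for Derl3 1.1 ± 0.38 (adjusted p = 0.12), for Dnajb9 0.81 ± 0.28 (adjusted p = 0.12) and for Hspa5 0.66 ± 0.25 (adjusted p = 0.16), so none of these 4 passed. The second Herpud1 probe gave a difference of 0.55 (adjusted p = 0.67). Without the replicate 3 array of every group, 4 of the 31 passed: Xbp1, Herpud1 (1.49 ± 0.13, adjusted p = 0.0038), Derl3 (1.34 ± 0.19, adjusted p = 0.014) and Dnajb9 (0.62 ± 0.14, adjusted p = 0.045). The share of all genes passing without those arrays is not given here, so nothing about the 31 is read from this count.

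Slide and group overlap in the comparison of both compounds with 4OHT alone, since all arrays of the first lay on slide 2 and all of the second on slide 1. With a slide term, which rests on the MG132 arrays that span both slides, 12 of the 31 genes passed, 10 higher and 2 lower. The share of all genes passing with this term is not given here, so nothing about the 31 is read from the count. The only MG132 array on slide 2 is replicate 3, so the term cannot tell slide from replicate 3. Over all groups, replicate 3 arrays differed by -0.465 ± 0.158 for Herpud1 (adjusted p = 0.1) and -0.401 ± 0.075 for Dnajb9 (adjusted p = 0.011). With the slide term Herpud1 was higher by 3.33 ± 0.45 (adjusted p = 0.0017), Derl3 by 2.42 ± 0.42 (adjusted p = 0.0052), Hspa5 by 1.62 ± 0.29 (adjusted p = 0.0059) and Dnajb9 by 1.62 ± 0.33 (adjusted p = 0.0093), and Xbp1 was lower (-1.40 ± 0.42, adjusted p = 0.044). Atf6 (0.58 ± 0.24) and Ern1 (0.51 ± 0.21) no longer passed (adjusted p = 0.13 and 0.12). With slide and replicate terms together Xbp1 did not pass either (-1.46 ± 0.52, adjusted p = 0.1). For 4OHT under MG132, 6 of the 31 passed with the slide term, 5 higher and 1 lower, against 8 without it. Within slide 2 a single MG132 array stands against 3 with both compounds, so the MG132 arm has no spread of its own there, and the differences are given as values: 1.26 for Dnajb9, 1.07 for Atf6, 0.75 for Ern1 and 1.49 for Herpud1. For MG132 against untreated cells, slide 1 alone gave 7 higher and 2 lower. The shares of all genes are not given for this count or for the 6 with the slide term. Nothing about the 31 is read from either.

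Among the 27 genes with a promoter entry, the 9 with the full ER stress element and the other 18 were set side by side as a description. With MG132 under 4OHT, 7 of the 9 rose and none fell, with changes from 0.08 to 1.7 and a median of 0.44, and of the 18 others 7 rose and 4 fell, with a median of 0.05. Over all genes tested, 28.3% rose and 21.6% fell there. Median centring ended the calls of Hsp90b1, Calr, Dnajc3 and Creld2 (adjusted p = 0.29, 0.37, 0.2 and 0.59). A fixed slide term ended those of Hsp90b1, Dnajc3 and Creld2 (adjusted p = 0.069, 0.095 and 0.13). Whether the element had a part in these changes was not tested. With MG132 alone 3 of the 9 rose and of the 18 others 4 rose and 3 fell, beside 24.5% and 18.4% of all genes. With 4OHT alone 1 of the 9, Canx, rose and 3 fell, namely Derl3, Calr and Dnajc3, beside 14.7% and 13.8% of all genes. Herpud1, whose change with MG132 was the largest of the 31, carries the short element and is among the 18. Those 2 genes with the element that did not pass with MG132 under 4OHT were Pdia6 and Syvn1.

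Other genes of the same pathways were taken from lists of their function, which were drawn up with earlier results of these data known. Their counts stand beside the same shares of all genes, 24.5% higher and 18.4% lower with MG132 alone, 28.3% and 21.6% with MG132 under 4OHT, 14.7% and 13.8% with 4OHT alone, and 13.2% and 13% with 4OHT under MG132, and nothing particular to a list is read from them. The PERK and ATF4 arm, of which the 31 genes hold none, had the largest median of the lists with MG132: it raised 8 of 12 genes and lowered 1 against untreated cells (median 1.25), and raised 8 and lowered none under 4OHT (median 2.2). The largest rises with MG132 alone were those of Atf3 (4.56 ± 0.30, 23.6-fold), Ddit4 (3.53 ± 0.28) and Ddit3 (3.29 ± 0.15, 9.78-fold), where Atf3 and Ddit3, the gene of CHOP, encode stress transcription factors and Ddit4 an inhibitor of mTORC1 signalling. Under 4OHT they were Atf3 (5.6 ± 0.30, with 2 of 3 arrays of 4OHT alone above background), Ddit3 (5.12 ± 0.15) and Chac1 (4.20 ± 0.44), a glutathione-degrading enzyme. The Ddit3 levels were -1.46, -1.53 and -1.90 in untreated cells, -2.12, -1.90 and -1.99 with 4OHT, 1.89, 1.65 and 1.43 with MG132, and 3.18, 3.15 and 3.02 with both. No array of one MG132 group overlapped with the other. The 4OHT response of this arm passed as larger under MG132 for Ddit3 (1.83 ± 0.21, adjusted p = 0.0011) and for Ppp1r15a (1.36 ± 0.23, adjusted p = 0.0072), which encodes the GADD34 subunit of an eIF2α phosphatase. With 4OHT alone 1 gene rose, Ero1a, an oxidase that drives disulphide formation (0.34 ± 0.10), and 1 fell, Atf3 (-0.88 ± 0.30), with the same 2 of 3 arrays above background. Under MG132, 4OHT raised 4 of the 12 and lowered none, with Ddit3 (1.46 ± 0.15), Ppp1r15a (1.25 ± 0.16) and the secreted stanniocalcin gene Stc2 (1.25 ± 0.34) the furthest.

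Among the cytosolic heat shock genes, MG132 raised 6 of 12 and lowered none (median 0.44), led by Hspa1a (4.73 ± 0.15, 26.6-fold), Hspa1b (3.86 ± 0.18) and Cryab (2.0 ± 0.22). Hspa1a and Hspa1b encode near-identical Hsp70 chaperones, whose probes can read both, and Cryab a small heat shock protein. Under 4OHT, MG132 raised 7 of the 12 and lowered 1 (median 0.59), led by Hspa1a (6.29 ± 0.15), Hspa1b (4.47 ± 0.18) and Dnajb1 (2.30 ± 0.08). 4OHT alone raised 3 and lowered 1, with the co-chaperone gene Bag3 (0.67 ± 0.10), Hsph1 (0.66 ± 0.17) and Hspa1a (-0.49 ± 0.15) the furthest, and under MG132 it raised 5, led by Hspa1a (1.07 ± 0.15), Dnajb1 (0.97 ± 0.08) and Hsph1 (0.76 ± 0.17). The difference between the 4OHT responses passed for Hspa1a (1.56 ± 0.22, adjusted p = 0.0031) and Dnajb1 (0.95 ± 0.11, adjusted p = 0.0013), an Hsp40 co-chaperone.

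Of 19 other ER folding genes, MG132 raised 3 and lowered 4 alone, and raised 4 and lowered 7 under 4OHT. Those furthest from 0 with MG132 alone were Kdelr3, a receptor that returns ER proteins (0.75 ± 0.18), Wfs1, an ER membrane protein (-0.75 ± 0.13), and Uggt1, the sensor of glycoprotein folding (0.55 ± 0.10). Under 4OHT they were Ero1b (1.76 ± 0.49, with 1 of 3 arrays of 4OHT alone above background), Erp29 (-0.56 ± 0.10) and Uggt1 (0.56 ± 0.10). 4OHT alone raised none of the 19 and lowered 1, Pdia5 (-0.42 ± 0.12), and under MG132 raised 1, the Hsp70 relative Hspa13 (0.55 ± 0.11), and lowered 4, with Kdelr3 and the nucleotide exchange factor Sil1 the furthest (each -0.70). The difference between the 4OHT responses passed for Sil1 (-0.66 ± 0.16, adjusted p = 0.033).

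Of 18 other genes of ER-associated degradation and its p97 ATPase, MG132 raised 6 and lowered 4. Nploc4, a p97 cofactor, rose 2.28-fold (1.19 ± 0.09), while the lectin gene Erlec1 and the ligase gene Rnf5 fell (-0.89 ± 0.11 and -0.89 ± 0.10). Under 4OHT 6 rose and 5 fell, with Edem3 (-1.27 ± 0.28), Rnf5 (-1.05 ± 0.10) and Nploc4 (0.85 ± 0.09) the furthest. 4OHT raised 4 and lowered 1 without MG132 and raised 4 and lowered 2 with it. Ubxn8, a membrane protein that recruits p97, rose by 0.62 ± 0.09 and 0.51 ± 0.09, and Ngly1, the gene of a deglycosylating enzyme, fell (-1.01 ± 0.14 and -0.66 ± 0.14).

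Translocation and signal peptide genes beside the 31 numbered 14, of which MG132 raised 3 and lowered 5 alone and raised 3 and lowered 6 under 4OHT. Srprb, a subunit of the signal recognition particle receptor (0.62 ± 0.11), and Spcs2, a subunit of signal peptidase (0.59 ± 0.12), were higher and Ssr4 (-0.52 ± 0.11), of the same complex as Ssr1, was lower. Under 4OHT, Spcs2 rose (0.82 ± 0.12) and Ssr4 (-0.55 ± 0.11) and Spcs3 (-0.53 ± 0.12) fell furthest. 4OHT raised 5 of the 14 and lowered none, with Srprb (0.64 ± 0.11), Serp1 (0.49 ± 0.12) and the channel subunit gene Sec61g (0.38 ± 0.09) the furthest, and under MG132 raised 4 and lowered 2, with Sec61g (0.48 ± 0.09), Sec11c (-0.47 ± 0.14) and Ssr3 (0.41 ± 0.11) the furthest.

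In the 9 other genes of the sensor pathways, MG132 raised 2 and lowered 4 alone and raised 2 and lowered 3 under 4OHT. Bfar, a membrane-bound ubiquitin ligase, rose by 1.24 ± 0.19 and 1.49 ± 0.19, and Ern2, the second IRE1 gene, by 0.78 ± 0.18 and 0.61 ± 0.18. Creb3l2, a relative of ATF6, fell with MG132 (-0.80 ± 0.17) and with 4OHT (-1.24 ± 0.17), and Mbtps2, one of the proteases that cut ATF6, rose with 4OHT (0.40 ± 0.12) and fell with MG132 under 4OHT (-0.79 ± 0.12). Under MG132, 4OHT moved none of the 9 past the test, and the difference between the 4OHT responses passed for Creb3l2 (0.98 ± 0.24, adjusted p = 0.037).

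**Figure D5:**
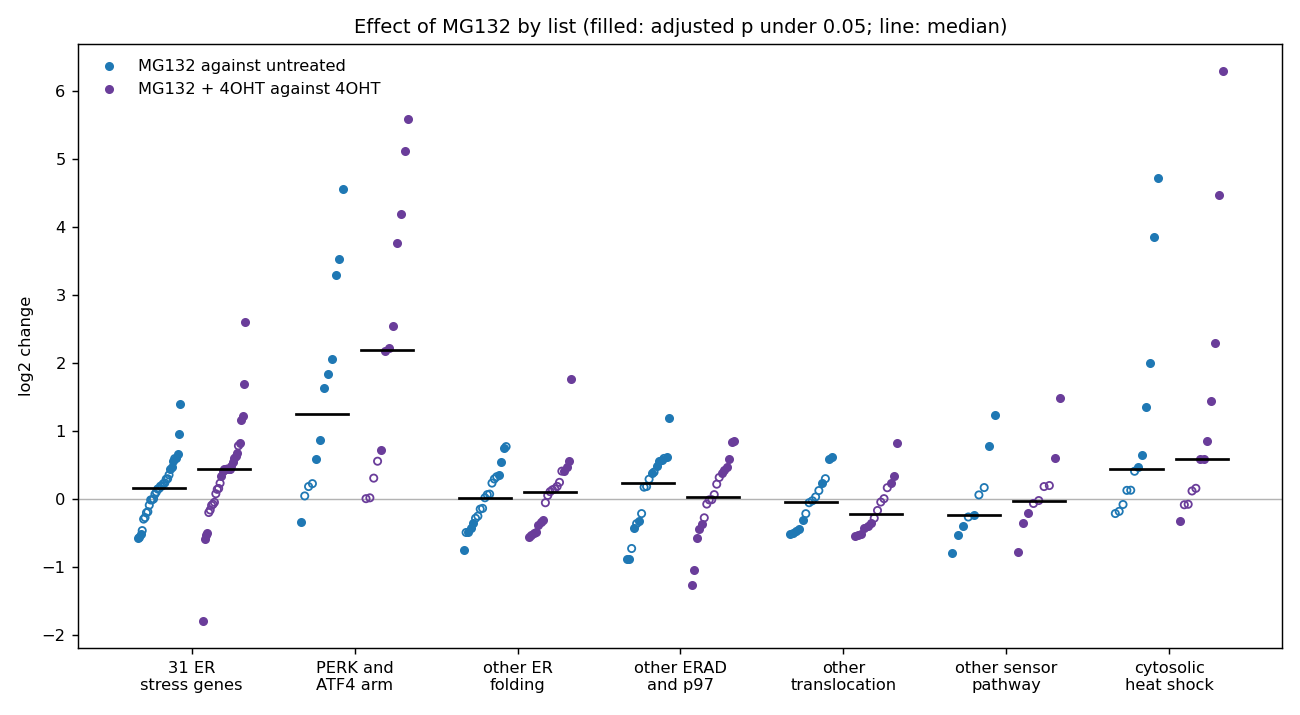
Each point is 1 gene, with its log2 change for MG132 against untreated cells (blue) and for MG132 with 4OHT against 4OHT alone (purple), by list; filled points had an adjusted p under 0.05 and the line is the median of the list. The PERK and ATF4 arm reaches 4.56 and 5.6 and the heat shock genes 4.73 and 6.29, against 1.40 and 2.61 for the 31 genes.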

How the data were processed

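For every array the authors deposited scanner output that gives the processed intensity of each spot, background-subtracted by Agilent Feature Extraction 11.0.1.1 and not scaled between arrays, per the file headers. The series-wide table they deposited held the same intensity values (largest difference 0). Of 62976 spots per array, 3671 control spots and outlier spots were left out, no spot was saturated, and spots of 1 probe were averaged. Accessions were matched to RefSeq names of GRCm38.p6 (32994 of 56605 probes). The log2 of the intensity minus that of the array's 75th percentile was used. A probe was kept if some group had it well above background in all 3 of its arrays (34328), and the brightest probe stood for its gene. Of the 31 genes, 16 had several kept probes, and 51 of their 52 probes were kept.

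The linear model, in limma 3.58.1 under R 4.3.3, gave each group its own mean (12 arrays, 8 residual and 2.09 prior degrees of freedom), with 5 contrasts, Benjamini-Hochberg adjustment over 26837 genes and a threshold of 0.05, and once more with a term for replicate 3. Arrays of 4OHT alone spread more (SD of deviations 0.39 to 0.45, others 0.19 to 0.29), and the standard errors are pooled. An exact test of 3 against 3 arrays cannot go below p = 0.1. The number of arrays limits the precision, and p-values reflect how these arrays, stated to be biological replicates, spread.

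The 31 genes, the lists and the tests were chosen with earlier results of these data known. Values on each array are given for Hspa5, the sensor genes and the 10 genes with the largest change, and up to 3 called genes of each related list are named per comparison, except 1 gene that is not reported here; Edem2, Sdf2l1 and Ddit3 were added after their values were seen. Accessions listed under older symbols were matched through RefSeq synonyms. Alternatives were normexp background correction (offset 50, run on median signals), median centring, quantile normalization, dropping the filter or asking it of all 12 arrays, averaging the probes of a gene, only the arrays compared, an intensity trend with robust variance, a slide block (fixed, then random), slide 1 alone, a replicate block, both blocks, and leaving out each array or all replicate 3 arrays; arrays of slide 2 were added after seeing the data. The code was tested on simulated data. Python 3.11.15, pandas, numpy and matplotlib searched the promoters and drew the plots.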

Additional observations from a re-analysis of the deposited data

Results flagged for a closer look

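The 4OHT response of Xbp1 differed with and without MG132 by -1.33 ± 0.33 (log2, adjusted p = 0.041 by limma over 26837 genes): 4OHT changed it by 1.88 without MG132 and by 0.55 with it. All 3 arrays with 4OHT alone lay above all arrays with both compounds, and all 3 Xbp1 probes had the same sign. It was the single member of the 31 whose difference between the responses passed the test in the main fit. The 2 other Xbp1 probes did not pass (adjusted p = 0.089 and 0.14). The call was lost in 16 of 24 other settings, 9 of which leave out 1 array. With a replicate block Xbp1 did not pass (adjusted p = 0.056).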

How the results depend on the processing

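Under the alternatives, 4OHT against untreated cells kept the call or non-call of a gene in 750 of 806 gene and setting pairs, MG132 against untreated cells in 752 of 806, 4OHT under MG132 in 751 of 806, MG132 under 4OHT in 704 of 775 and the difference between the 4OHT responses in 721 of 744. The shares of all genes under the alternatives are not given here, so the counts in this section say nothing particular to the 31. The counts of called genes moved by over 1.5 times as follows. For 4OHT against untreated cells, 10 became 6 with only the arrays compared and 5 to 10 when 1 array was left out. For 4OHT under MG132, 8 became 5 with median centring, 4 with no filter, 5 with only the arrays compared, 3 with slide and replicate blocks together, 2 with the arrays of slide 2 alone (added after seeing the data, with the lone MG132 array taken to vary like the others, so that this count says nothing of stability), and 4 to 9 when 1 array was left out. For MG132 under 4OHT, 20 became 13 with median centring, 12 with slide as a fixed block and 7 with both blocks, and 15 to 20 when 1 array was left out; MG132 against untreated cells gave 7 to 11. For the difference between the responses, 1 became 2 with normexp, 0 with median centring, no filter, the mean over probes, slide as a fixed or random block and both blocks, 4 without all replicate 3 arrays, and 0 to 2 when 1 array was left out. The replicate 3 arrays differed from the others in 2 genes, in place of 1, with the mean over probes. The median of the 31 genes with MG132 was -0.19 with median centring in place of 0.15. Sdf2l1 changed sign with both blocks (0.07) and Dnajc10 without the replicate 1 array with both compounds (-0.52). The cause of these changes was not tested.

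The labels do not say that a replicate number marks a shared batch, and not every same-numbered pair correlated above 0.1, so the numbers were not taken to pair the arrays. Deviations of same-numbered arrays correlated at -0.06 to 0.16 for number 1, 0.07 to 0.15 for number 2 and 0.12 to 0.41 for number 3. Between arrays of different number, those of numbers 1 and 2 correlated at 0.01 to 0.19. Those of number 3 with number 1 or 2 correlated at -0.29 to 0.01. Same-numbered arrays thus deviated together most in replicate 3, a hint from the data and not from the design. With a replicate block, 9, 11, 6 and 19 of the 31 genes were called in the order above, and for the difference between the responses 1, Dnajb9 (0.81 ± 0.15, adjusted p = 0.015) in place of Xbp1 (-1.33 ± 0.36, adjusted p = 0.056). All 31 genes were well above background on all 12 arrays.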
